A study of Mus musculus with 6 samples.

Results

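Steady regions were the accessible stretches of the mouse genome that had nearly the same ATAC-seq level in 6 libraries of sorted nuclei from the ventral tegmental area, 3 with Ogt knockdown and 3 controls. ATAC-seq counts DNA that a transposase can reach, and a region's level is given here as CPM, its reads per 1000000 of the library's reads in all regions. The members were chosen by these levels: a region on chromosomes 1 to 19 was called steady when its mean was 5 CPM or more and its highest library was at most 25% above its lowest. This held for 5463 of the 193148 regions, or 2.83%, and for 11.9% of the 45916 regions that passed the same minimum. The remaining 40453 regions above the minimum, called other regions below, are what the steady ones are set against. The levels, ratios and genotype differences of steady regions are therefore descriptions with no test.

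Nuclei came from mice labelled Ogtflox+/Y (knockdown) or Ogtflox-/Y (control), with 3 libraries each. All mice, controls included, received the Cre-dependent marker virus AAV-DIO-H2B-EGFP plus AAV-TH-Cre, a vector named for Th, in the ventral tegmental area, and nuclei with the green fluorescent marker were sorted. Ogt encodes the enzyme that attaches O-linked N-acetylglucosamine to nuclear and cytoplasmic proteins. Its strongest of 7 regions, at chrX:101639785-101640185, had 16.8, 14.9 and 13.99 CPM in knockdown and 11.1, 11.6 and 9.66 CPM in control, higher in all 3 knockdown libraries. Regions of Ogt at chrX:101640708-101641108, chrX:101651080-101651822 and chrX:101681704-101682104 were also higher in all 3 knockdown libraries. Their means were 10.3, 4.20 and 1.64 CPM in knockdown and 5.84, 1.63 and 0.698 CPM in control. Only a weak region of Ogt at chrX:101656647-101657047 lay the other way. It had 0.853, 0.709 and 0.760 CPM in knockdown and 1.52, 1.60 and 1.46 CPM in control. The remaining regions of Ogt overlapped between the groups. The labels do not name the deleted part of Ogt, so these levels are no check of the knockdown. The genotype label of knockdown replicate 1 is Ogtflox+/Y, while its title says Ogtflox-/Y. Without this library 8626 regions were steady, 56.8% of them at gene ends, against 5463 and 62.6% with it. Leaving out any 1 library loosens the limit, and gave 6601 to 8626 steady regions with 54.92% to 60.01% at gene ends. The change is therefore no sign of which label is right. Whether the libraries came from separate animals is not stated in the labels, nor are age and strain, so spread between libraries may be technical.

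An accessible promoter is the stretch upstream of a transcription start where nucleosomes are kept away and the transcription machinery assembles. Promoters of broadly active genes usually lie in CpG islands, which are rich in G, C and the CG step and tend to be open in most cell types. Enhancers, which lie inside or between genes, are open in fewer cell types, and their accessibility varies more with cell state. Proteins that often sit at the promoters of broadly active genes include NFY at the CCAAT box, ETS-family factors and SP/KLF factors.

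The libraries held 34384319 to 66853563 reads in all, and 12698758 to 24440507 of them fell in regions, or 31.0% to 37.0% in knockdown and 36.6% to 38.2% in control. At 5 CPM a region had 63.5 to 122 reads, depending on the library, and counting error alone gave an SD of 9.05% to 12.5% of the level. At 40 CPM that SD was 3.20% to 4.44%, so a limit of 25% over 6 libraries is a tighter demand on weak regions than on strong ones. The highest mean of all regions above the minimum, 234 CPM, was at a gene end of Th, the gene of tyrosine hydroxylase that marks dopaminergic neurons, and it was not steady. Summed over the strongest region within 5000 bp of each gene, 9 dopaminergic markers had 311 to 379 CPM in knockdown libraries and 311 to 533 CPM in control libraries. Most of this sum was Th, with 224, 181 and 164 CPM in knockdown and 178, 397 and 261 CPM in control. Next came the regions taken for Pitx3 and Ddc, with means of 55.5 and 25.2 CPM. Both were steady, but a region within 5000 bp may be nearer to another gene. By nearest gene neither was counted for a dopaminergic gene in the list further below. The strongest regions of Slc6a3 and Slc18a2, also dopaminergic markers, averaged only 4.24 and 5.40 CPM. By the same sum 5 microglia markers had 19.6 to 22.8 CPM in knockdown libraries and 34.5 to 42.8 CPM in control libraries, and 2 glutamatergic markers 21.3 to 28.8 CPM in knockdown libraries and 45.05 to 47.9 CPM in control libraries. The other way round, 3 GABAergic markers had 46.3 to 59.4 CPM in knockdown libraries and 32.95 to 43.3 CPM in control libraries. The sum of 4 endothelial markers was 26.9 to 28.2 CPM in knockdown libraries and 22.1 to 26.7 CPM in control libraries, but its members were split. Pecam1 was higher in knockdown (17.2, 17.8 and 17.8 CPM, control 10.7, 9.41 and 11.5 CPM), and so was the weaker Tek. Cldn5 was lower (2.56, 1.496 and 2.79 CPM, control 4.497, 5.56 and 6.09 CPM). Flt1 was also lower (3.63, 5.197 and 4.94 CPM, control 5.41, 6.51 and 6.69 CPM). Sums of 5 astrocyte and 5 oligodendrocyte markers overlapped between the genotypes, at 47.2 to 58.8 CPM and 34.6 to 47.8 CPM in knockdown libraries, against 47.9 to 51.4 CPM and 34.97 to 38.7 CPM in control libraries. Single markers differed more. In knockdown replicate 1 Mog had 5.62 CPM and Mag 5.19 CPM, against at most 0.945 and 2.00 CPM in any other library. Aqp4 was higher in knockdown (10.5, 3.15 and 9.12 CPM, control 2.36, 1.92 and 2.31 CPM). Aldh1l1 was lower (5.83, 8.58 and 6.58 CPM, control 11.8, 9.66 and 11.2 CPM). All 33 markers of 7 cell types had a region, the lowest being Mog of oligodendrocytes at a mean of 1.49 CPM, and the part of cell composition in the results was not tested.

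Promoters of steady regions carried the sequences that the comparison below turns on. For 2 steady regions with an ETS motif the RefSeq promoter windows (build GRCm38.p6, called mm10) are shown first. Each window is 250 bases before the annotated start and 50 bases after it, printed 5′ to 3′ on the strand of the gene. Capitals mark matches on either strand to any of 14 short motifs, among them ETS (CCGGAAG), NFY (CCAAT), SP/KLF (GGGCGG), YY1 (AAGATGG), NRF1 (GCGCATGCG) and the E-box (CACGTG). Coro1c encodes an actin-binding coronin, and its window lies at chr5:113908657-113908956 on the minus strand. The capitals in Coro1c include 2 overlapping ETS matches, 1 on each strand. Atp5j encodes a subunit of the mitochondrial ATP synthase, and its window lies at chr16:84834927-84835226 on the minus strand. Both were picked after the share of ETS motifs was seen, as the most accessible steady regions with one that were not already to be shown.
Coro1c: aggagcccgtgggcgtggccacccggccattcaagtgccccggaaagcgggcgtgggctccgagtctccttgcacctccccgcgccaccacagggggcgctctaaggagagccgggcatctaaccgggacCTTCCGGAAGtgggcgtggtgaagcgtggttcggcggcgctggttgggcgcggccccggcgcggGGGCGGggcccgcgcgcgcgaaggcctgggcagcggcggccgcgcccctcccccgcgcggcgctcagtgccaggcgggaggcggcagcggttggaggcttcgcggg
Atp5j: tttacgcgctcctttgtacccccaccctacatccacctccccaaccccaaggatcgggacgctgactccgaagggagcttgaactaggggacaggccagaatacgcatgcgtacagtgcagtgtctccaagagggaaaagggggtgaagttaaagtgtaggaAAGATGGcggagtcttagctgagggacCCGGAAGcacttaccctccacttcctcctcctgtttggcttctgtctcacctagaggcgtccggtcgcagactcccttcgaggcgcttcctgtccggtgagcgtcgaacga

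The 4 most accessible steady regions that cover a promoter window are shown next, because they carry the highest level that stayed level across the libraries. Rita1 lies at chr5:120612540-120612839 on the minus strand, Sp2 at chr11:96977639-96977938 on the minus strand, Mnt at chr11:74830674-74830973 on the plus strand and Trim45 at chr3:100922243-100922542 on the plus strand. All 4 windows hold the SP/KLF motif, Sp2 and Trim45 also hold CCAAT boxes, and Mnt holds an E-box and a YY1 motif.
Rita1: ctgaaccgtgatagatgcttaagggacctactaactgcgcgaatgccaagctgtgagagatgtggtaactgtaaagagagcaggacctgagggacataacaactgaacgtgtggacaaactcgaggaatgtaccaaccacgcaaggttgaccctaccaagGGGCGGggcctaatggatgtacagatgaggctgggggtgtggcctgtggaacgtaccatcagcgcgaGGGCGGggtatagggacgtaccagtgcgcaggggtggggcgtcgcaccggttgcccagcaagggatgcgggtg
Sp2: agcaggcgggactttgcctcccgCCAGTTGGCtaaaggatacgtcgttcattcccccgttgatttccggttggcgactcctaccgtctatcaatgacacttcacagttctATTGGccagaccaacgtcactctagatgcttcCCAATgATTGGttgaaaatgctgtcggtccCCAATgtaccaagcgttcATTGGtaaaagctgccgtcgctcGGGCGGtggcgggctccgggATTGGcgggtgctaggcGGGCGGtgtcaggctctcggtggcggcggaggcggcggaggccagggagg
Mnt: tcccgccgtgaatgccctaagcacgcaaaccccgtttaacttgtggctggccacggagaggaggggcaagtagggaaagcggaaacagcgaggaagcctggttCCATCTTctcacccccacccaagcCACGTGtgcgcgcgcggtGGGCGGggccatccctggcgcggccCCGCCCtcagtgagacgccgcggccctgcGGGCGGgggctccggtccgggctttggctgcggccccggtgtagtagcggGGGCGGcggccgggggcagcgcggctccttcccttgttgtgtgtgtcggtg
Trim45: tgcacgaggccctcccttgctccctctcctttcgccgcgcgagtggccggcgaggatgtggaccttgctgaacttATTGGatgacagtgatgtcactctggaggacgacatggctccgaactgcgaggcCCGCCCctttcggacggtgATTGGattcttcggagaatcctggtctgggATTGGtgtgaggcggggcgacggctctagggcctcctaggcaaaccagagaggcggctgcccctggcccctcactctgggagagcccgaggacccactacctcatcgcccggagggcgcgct

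The 4 windows with the lowest ratio of highest to lowest library come after these. They are Mrpl28 at chr17:26123253-26123552 (plus strand), Tcaim at chr9:122805297-122805596 (plus strand), Ppp1r16b at chr2:158666885-158667184 (plus strand) and Edem2 at chr2:155729426-155729725 (minus strand). The Ppp1r16b window holds none of the 14 motifs as spelled here, and in Mrpl28 both CCAAT matches share bases. These 4 windows hold 0 to 2 matches each, and the 4 most accessible ones 2 to 9.
Mrpl28: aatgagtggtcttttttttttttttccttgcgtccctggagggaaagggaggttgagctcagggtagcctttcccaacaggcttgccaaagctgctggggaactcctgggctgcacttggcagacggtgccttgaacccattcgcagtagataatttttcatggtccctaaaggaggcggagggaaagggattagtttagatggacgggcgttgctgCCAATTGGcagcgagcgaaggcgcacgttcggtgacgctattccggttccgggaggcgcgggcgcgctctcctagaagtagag
Tcaim: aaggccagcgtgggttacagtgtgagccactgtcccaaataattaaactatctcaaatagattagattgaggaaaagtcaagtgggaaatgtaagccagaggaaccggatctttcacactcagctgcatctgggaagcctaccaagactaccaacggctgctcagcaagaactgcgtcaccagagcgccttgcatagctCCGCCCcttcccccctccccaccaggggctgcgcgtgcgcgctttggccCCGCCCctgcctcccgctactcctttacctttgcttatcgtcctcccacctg
Ppp1r16b: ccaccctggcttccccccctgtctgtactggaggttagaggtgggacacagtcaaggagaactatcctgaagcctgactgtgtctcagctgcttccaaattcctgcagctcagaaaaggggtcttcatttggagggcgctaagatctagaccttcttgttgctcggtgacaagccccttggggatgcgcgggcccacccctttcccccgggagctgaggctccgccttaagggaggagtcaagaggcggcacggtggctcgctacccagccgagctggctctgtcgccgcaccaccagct
Edem2: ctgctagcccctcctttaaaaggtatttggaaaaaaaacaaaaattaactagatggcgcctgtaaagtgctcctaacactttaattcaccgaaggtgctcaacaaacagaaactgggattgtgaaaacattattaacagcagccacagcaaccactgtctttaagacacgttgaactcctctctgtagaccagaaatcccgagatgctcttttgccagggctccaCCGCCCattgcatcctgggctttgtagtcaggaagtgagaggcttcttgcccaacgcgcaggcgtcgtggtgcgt

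Sf1, at chr19:6363440-6363739 on the plus strand, and Eif2ak3, at chr6:70844265-70844564 on the plus strand, were the most accessible steady windows outside these sets with an unbroken motif of 9 letters. Sf1, a splicing factor gene, holds NRF1, and Eif2ak3, which encodes the stress kinase PERK, holds ZNF143 (ACTACAATT) beside a STAT match (TTCCNGGAA).
Sf1: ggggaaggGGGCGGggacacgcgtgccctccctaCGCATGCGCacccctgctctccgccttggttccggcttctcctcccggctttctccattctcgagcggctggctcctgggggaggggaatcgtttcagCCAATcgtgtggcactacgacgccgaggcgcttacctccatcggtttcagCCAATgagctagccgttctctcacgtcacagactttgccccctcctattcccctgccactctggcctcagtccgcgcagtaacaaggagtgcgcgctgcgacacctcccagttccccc
Eif2ak3: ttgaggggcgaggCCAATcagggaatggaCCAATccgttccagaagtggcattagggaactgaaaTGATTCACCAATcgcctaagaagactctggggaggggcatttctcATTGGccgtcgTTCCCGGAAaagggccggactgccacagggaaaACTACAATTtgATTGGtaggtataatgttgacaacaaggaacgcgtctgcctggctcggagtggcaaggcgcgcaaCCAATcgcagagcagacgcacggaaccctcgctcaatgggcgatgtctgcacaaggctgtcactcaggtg

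Levels of the most accessible steady regions were high in every library. The region at Rita1, which encodes a protein that binds the Notch effector RBPJ (chr5:120612465-120613511, mm10), had 139.8, 129.9 and 130.03 CPM in knockdown replicates 1 to 3 and 147.4, 121.2 and 127.5 CPM in control replicates 1 to 3. Knockdown averaged 133.2 ± 5.66 CPM and control 132.0 ± 13.7 CPM (SD, n = 3 each), and the 2 groups overlapped, with control replicate 1 highest and control replicate 2 lowest. The region at Sp2, a gene of the SP/KLF family (chr11:96977285-96978061), had 111.5, 92.7 and 100.8 CPM in knockdown replicates 1 to 3 and 112.6, 100.1 and 106.2 CPM in control replicates 1 to 3. It lies inside the gene by its outer bounds, 4898 bp from the nearer one, yet covers an annotated start of Sp2. The region at Mnt, a MAX partner that binds the E-box (chr11:74830211-74830970), had 92.6, 85.2 and 91.2 CPM in knockdown replicates and 96.04, 82.5 and 85.5 CPM in control replicates. Trim45, a tripartite motif gene, came next with 96.2, 83.2 and 86.8 CPM in knockdown replicates and 87.4, 77.5 and 85.8 CPM in control replicates. The remaining 6 of the first 10 by mean, at Tial1, Suco, Ncapd2, Cyhr1, Coro1c and Oxsr1, lay between 76.7 and 85.3 CPM and all at gene ends. Control replicate 1 was the highest library in 5 of these 10 regions, and control replicate 2 the lowest in 6.

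The flattest regions came from a wide range of levels. At Kremen1, which encodes a receptor of the Wnt inhibitor Dickkopf (chr11:5261544-5262189), the libraries had 30.99, 30.3 and 30.2 CPM in knockdown and 31.1, 30.4 and 30.2 CPM in control, a ratio of 1.03. Knockdown averaged 30.5 ± 0.428 CPM and control 30.6 ± 0.457 CPM (SD, n = 3 each). The region shared by the ends of Pgap6 and Mrpl28, a mitochondrial ribosomal protein gene (chr17:26123253-26123653), had 23.3, 23.5 and 23.9 CPM in knockdown and 24.1, 23.7 and 23.5 CPM in control. Kremen1 rested on 385 to 743 reads in a library, and the spread there was below the counting error of those reads, so the libraries could not be ordered. At Tcaim (chr9:122805410-122805810) the levels were 40.02, 40.3 and 40.5 CPM in knockdown and 41.2, 40.4 and 39.8 CPM in control. The other members of the 10 with the lowest ratio lay at Ppp1r16b, Edem2, Scoc, Zfp598, Rtn4, Tmem214 and Dctn1, with means of 9.38 to 48 CPM and ratios of 1.04 to 1.05. Dctn1 encodes the large subunit of the dynein activator dynactin, and Edem2 a factor of protein quality control in the endoplasmic reticulum. Zfp598, 1869 bp beyond the gene, was the only one of the 10 between genes.

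**Figure D1:**
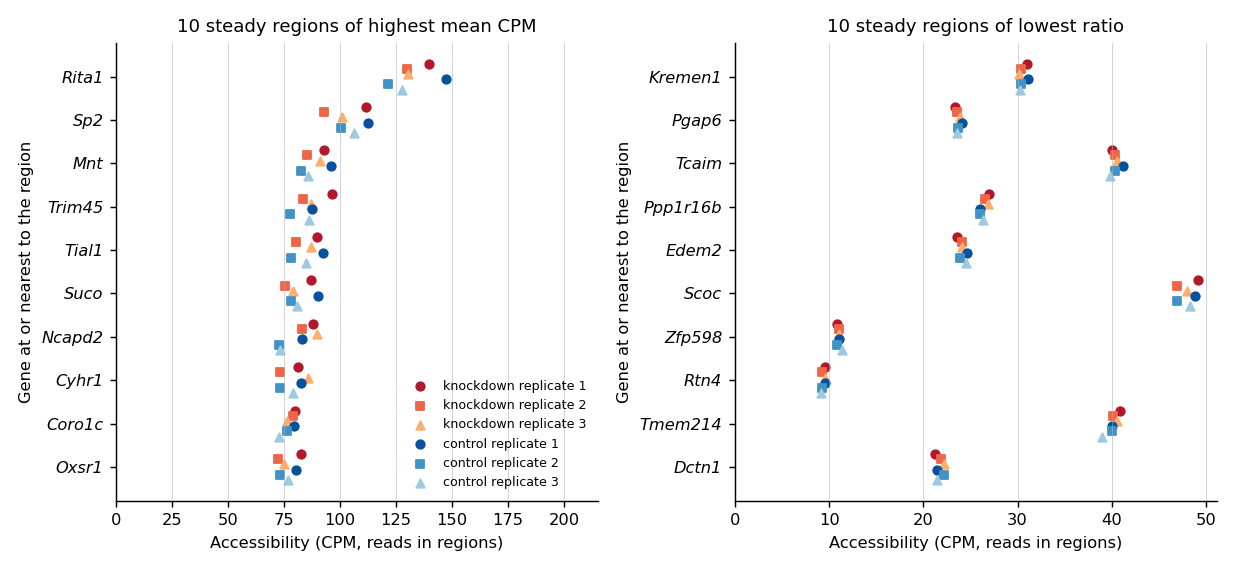
CPM of each library (x axis, from 0; red symbols knockdown replicates 1 to 3, blue symbols control replicates 1 to 3) at the 10 steady regions of highest mean (left) and of lowest ratio (right), named by the gene at or nearest to each. At Rita1 the libraries span 121.2 to 147.4 CPM, and at Kremen1 they span 30.2 to 31.1 CPM.

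The plot of levels by library shows that the most accessible members spread over more CPM than the flattest ones, while both kept the same rule. Steady regions had a median of 23.2 CPM (quartiles 13.8 and 34.2, highest 132.6), and other regions 8.87 CPM (highest 234). The ratio of highest to lowest library had a median of 1.20 in steady regions, with 1.03 the lowest, and a median of 1.60 in other regions. The members closest to the minimum lay at Smyd2, Prorp and Nav2 (5.02 to 5.03 CPM), and the regions just below it at Foxn3, Aacs and Gabarapl1 (4.98 to 4.99 CPM). At the ratio limit Csnk1a1, Crtap and Vps35l lay just inside and Cbx2, Asap2 and Prr13 just outside, and all of these round to a highest library 25% above the lowest.

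Steady regions lay at gene ends more often than other regions. A gene end is a region within 1000 bp of either bound of one of 21887 RefSeq protein-coding genes, without regard to strand. Gene ends held 3422 steady regions, 62.6% (95% Wilson interval 61.3% to 63.9%, counting error only), against 12428 other regions, 30.7% (30.3% to 31.2%). Regions inside genes were 1413 of the steady set, 25.9%, and 18510 of the other set, 45.8%. Regions between genes were 628 of the steady set, 11.5%, and 9515 of the other set, 23.5%. Neighbouring regions and the 2 ends of 1 gene are not independent, so these intervals are narrower than the true uncertainty.

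Part of this followed the level, since strong regions are mostly gene ends. With reads in regions as scaling, the share of regions that were steady was 3.53% at 5 to 10 CPM, 12.3% at 10 to 20, 30.3% at 20 to 40 and 32.2% at 40 CPM or more. Within each class the gene ends still had the highest share. At 20 to 40 CPM 33.0% of gene ends, 25.3% of regions inside genes and 21.0% of regions between genes were steady. At 40 CPM or more the shares were 34%, 24.5% and 19.4%, at 10 to 20 CPM 15.9%, 10.3% and 10.1%, and at 5 to 10 CPM 5.11%, 3.38% and 2.91%. Gene ends also came first in all 4 classes with TMM scaling, with DESeq2 size factors and with library totals. At 20 to 40 CPM they were steady in 16.8%, 16.1% and 26.8% under these scalings, above 12.7%, 12.3% and 15.6% inside genes. At 40 CPM or more the shares of gene ends fell to 10.1%, 8.95% and 20.01%. Inside genes they were 6.36%, 5.45% and 17.3%, a rise only with library totals. The strongest gene ends were therefore the steadiest class only with reads in regions.

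**Figure D2:**
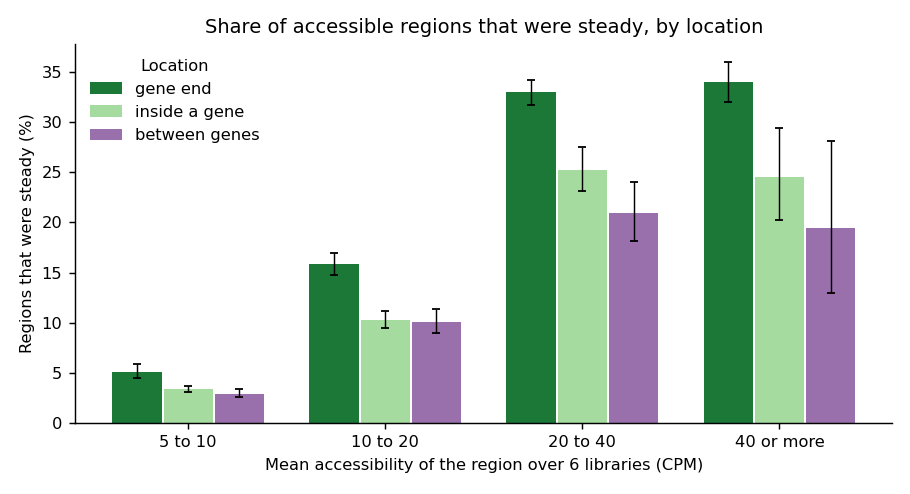
Share of regions that were steady (y axis, %, from 0) by mean level class in CPM (x axis) and location, with 95% Wilson intervals for counting error. Gene ends have the highest bar in each class, 33.0% at 20 to 40 CPM against 25.3% inside genes and 21.0% between genes.

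The bars grow over the first 3 classes at each location, and the intervals of the last 2 classes overlap. The widest interval belongs to regions between genes at 40 CPM or more, of which there were only 103. Steady regions were also wider. Those over the standard 401 bp made up 17.8% of the steady set and 12.2% of the other set, although within the class of 20 to 40 CPM the shares were 18.8% and 19.5%. No autosome stood far from the rest, with 10.5% (chromosome 15) to 13.4% (chromosome 19) of regions steady.

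Annotated transcription starts marked many of these gene ends. Leaving out chromosome 18, for which no promoter windows were used, 2120 of 3328 steady gene ends covered at least 150 bases of a coding promoter window, 63.7%, against 4998 of 12094 other gene ends, 41.3%. Inside genes, where a window means a start within the outer bounds, the counts were 257 of 1367 steady regions, 18.8%, and 887 of 17910 other regions, 4.95%. Between genes 49 of 604 steady regions, 8.11%, and 3.35% of other regions covered a start of a long non-coding RNA. Within classes, regions over a coding start were steady in 34.8% at 20 to 40 CPM and 35.2% at 40 CPM or more, and regions without one in 25.3% and 24.5%. At 5 to 10 CPM the shares were close, at 4.08% and 3.51%. Gene ends with coding starts on both strands were 6.37% of the steady set and 3.70% of the other set, but at 20 to 40 CPM they were steady in 33.2%, near the 33.0% of the remaining gene ends.

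Away from gene ends, the strongest steady region inside a gene after Sp2 lay in Gmpr, which encodes guanosine monophosphate reductase (chr13:45538511-45539604). It had 68.7, 74.97 and 83.6 CPM in knockdown replicates 1 to 3 and 72.9, 75.2 and 71.6 CPM in control replicates 1 to 3, with knockdown at both extremes. 9430038I01Rik, Srrm2, a splicing scaffold gene, and Cln8, an endoplasmic reticulum gene, followed with means of 68.3, 66.8 and 61 CPM. Between genes the strongest lay 3191 bp from Wdr5, a subunit of histone methyltransferase complexes (chr2:27539726-27540477). It had 69.5, 66.8 and 69.2 CPM in knockdown and 81.4, 65.6 and 73.5 CPM in control, so control replicates 1 and 2 bounded it. The next were 11462 bp from Cct8l1, 1395 bp from Midn, 4191 bp from Ywhag and 4365 bp from the olfactory receptor gene Olfr288, at 55.5 to 57.0 CPM. Steady regions inside genes lay a median of 10636 bp from the nearer bound, closer than the 20596 bp of other regions inside genes, and those between genes 15944 bp from the nearest gene, against 17656 bp.

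Motifs in the promoter windows differed between steady and other regions for few of the 14 searched, and not in the same way under every scaling. A window counted where a region covered at least 150 of its 300 bases, which gave 2815 windows of steady regions, 6732 of other regions and 20063 in all. The ETS motif, CCGGAAG, was present in 25.3% of windows of steady regions, 18.1% of those of other regions and 11.9% of all windows. At 20 to 40 CPM the shares were 26.1% and 21.7%, and at 40 CPM or more 26.3% and 19.3%. Its share was higher in steady windows under all 4 scalings, by 1.81 percentage points with DESeq2 size factors, 2.78 with TMM, 5.26 with library totals and 7.14 with reads in regions. Within 10 to 20 CPM it was lower in steady windows with TMM, at 14.4% and 16.7%, and with DESeq2 size factors, at 15.4% and 16.6%.

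The CCAAT box of NFY was present in 46.4% of windows of steady regions and 37.9% of other regions (38.1% of all windows), in 60.8% and 51.2% at 40 CPM or more and in 42.4% and 35.5% at 20 to 40 CPM. At 10 to 20 CPM it was lower in steady windows, at 32.4% and 33.8%, and at 5 to 10 CPM only 33 windows were of steady regions, with 27.3% and 29.7%. With library totals the order turned round, at 34.6% and 42.0%. The CRE of the cyclic AMP response factors, TGACGTCA, was in 2.74% of windows of steady regions and 4.35% of other regions (2.30% of all windows), and this also turned round with library totals, at 5.10% and 3.53%. The SP/KLF motif was in 73.4% and 69.0% (47.0% of all windows), but at 40 CPM or more in 82.6% and 81.9%. In that class it was lower in steady windows with TMM (76.4% and 82.9%) and with DESeq2 size factors (74.8% and 83.0%). With library totals it was higher there, at 87.4% and 80.8%. Over all classes the shares were close with TMM (70.5% and 70.3%) and with DESeq2 size factors (69.7% and 70.4%). Base composition was alike, with a median GC content of 62.7% in windows of both sets, against 57.0% in all windows. The CG step, counted over what the C and G content gives, had medians of 0.811 and 0.801, against 0.585. None of these matches shows binding, and the windows of steady and other regions were not tested against each other.

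**Figure D3:**
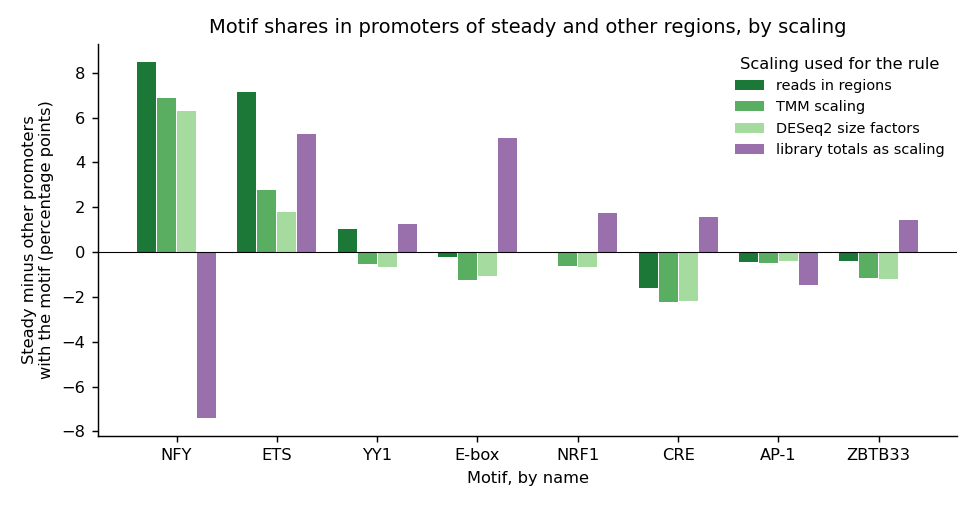
Percentage points by which windows of steady regions held a motif more often than windows of other regions (y axis), for 8 of the 14 motifs (x axis), with bars for the 4 scalings used in the rule. ETS bars are all above 0 (1.81 to 7.14), while NFY is above 0 with 3 scalings and at -7.40 with library totals.

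The motif bars show that library totals put other promoters into the steady set, and that for NFY, YY1, the E-box, NRF1, CRE and ZBTB33 they lie on the other side of the bars for TMM and DESeq2 size factors. The E-box stood 5.11 points above with library totals and below with the other 3. AP-1 (TGANTCA) was lower in steady windows under all 4 when the classes were pooled, with differences of -0.387 to -1.48 points. Within 20 to 40 CPM it was higher in steady windows with reads in regions (3.89% and 3.47%), and the difference was 0.027 points with TMM, 0.0813 with DESeq2 size factors and -0.583 with library totals.

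Genes with several steady regions had many regions in all. The 4835 steady regions at or inside genes belonged to 4196 genes, of 12818 that had a region above the minimum. Of these genes 3680 had 1 steady region, 428 had 2 and 88 had 3 or more. Auts2, a neurodevelopmental gene, had 6 of its 34 regions steady and Nav2, a neuron navigator gene, 6 of 51. App, which encodes the amyloid precursor protein, had 5 of 26 and Itpkb 5 of 13.

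Gene families and lists were read against a standardised count, the number of steady regions that the list would have if each of its regions were steady at the share of all regions of its CPM class and location. RNA polymerase subunit genes had 11 of 35 regions steady (standardised count 8.02), Mediator subunit genes 15 of 61 (10.03) and respiratory chain and ATP synthase genes 34 of 109 (25.2). Translation initiation genes had 23 of 94 (17.5) and zinc finger genes named Zfp 140 of 623 (112). These 5 families were above their standardised counts under all 4 scalings, though by less than 1 region in several cases, among them Mediator with TMM (6, standardised count 5.81), respiratory chain genes with DESeq2 size factors (13, 12.8) and translation initiation genes with library totals (13, 12.64). The Zfp genes had 82 with library totals (80.9). Transmembrane protein genes, grouped only by the symbol Tmem, were also above under all 4 scalings. They had 66 of 369 (58.1), 41 with TMM (35.0), 37 with DESeq2 size factors (34.2) and 43 with library totals (41.4). Cytosolic ribosomal protein genes had 27 of 102 (25.3) and proteasome genes 14 of 58 (12.8), near their standardised counts. With TMM both were below, at 8 (13.05) and 3 (6.96), and with DESeq2 size factors at 7 (12.5) and 2 (6.73). Mitochondrial ribosomal protein genes had 26 of 99 (19.1) but 9 with a standardised count of 10.5 under TMM.

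Examples come from the strongest members of these families. At Atp5j (chr16:84834786-84835866) the libraries had 79.4, 72.1 and 72.2 CPM in knockdown and 76.6, 76.96 and 77.2 CPM in control. At Uqcrq, a subunit of respiratory complex III, they had 62.6, 56.3 and 58.6 CPM in knockdown and 62.4, 52.8 and 56.8 CPM in control. Knockdown replicate 1 was the highest library at both. Polr3b, an RNA polymerase III subunit gene, had 29.7, 31.97 and 28.99 CPM in knockdown and 33.6, 34.001 and 31.8 CPM in control. Med26 and Med29, Mediator subunits, averaged 49.9 and 48.7 CPM over the libraries, Eif2b4, an initiation factor subunit, 60.3 CPM and Zfp78 64.2 CPM.

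Genes induced by neuronal activity had more steady regions than their standardised count. These immediate early genes are switched on within minutes of stimulation in many neurons. Of their 50 regions 16 were steady (standardised count 9.27), at Arc, Bdnf, Dusp1, Egr1, Fos, Fosb, Jun, Junb, Jund, Npas4 and Nr4a1. The count was above under all 4 scalings, with 10 (5.38) for TMM, 10 (5.24) for DESeq2 size factors and 7 (6.60) for library totals. At Egr1, a zinc finger transcription factor gene (chr18:34860620-34861250), the libraries had 44.8, 41.7 and 43.3 CPM in knockdown and 46.3, 42.7 and 46.7 CPM in control. At Npas4, a neuronal transcription factor gene (chr19:5001781-5002181), they had 44.3, 49.1 and 49.9 CPM in knockdown and 50.5, 42.02 and 42.2 CPM in control. Both overlapped between the groups. A region at Fosb, which encodes an AP-1 subunit (chr7:19309916-19310506), was steady under all 4 scalings, with 29.6, 31.8 and 27.8 CPM in knockdown and 31.8, 27.1 and 29.1 CPM in control. Other regions of this list were not steady. The strongest region of Jun had 69.8, 54.3 and 64.3 CPM in knockdown and 50.9, 44.97 and 48.2 CPM in control, a ratio of 1.55. Egr2 had no steady region, and one of its regions had 4.62, 3.15 and 3.92 CPM in knockdown and 14.2, 15.8 and 18.6 CPM in control, a ratio of 5.89.

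DNA repair genes had 13 of 37 regions steady (standardised count 7.03), among them a region at Atm, which encodes the kinase that senses double-strand breaks. With TMM only 2 were steady, below the 3.73 of that scaling.

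Lists linked to the cells and pathways of the study lay below or near their standardised counts. Genes of dopaminergic identity had 2 of 55 (standardised count 4.85), both at Kcnj6, which encodes a potassium channel of midbrain dopaminergic neurons. This count gives each region to its nearest gene only. The strongest regions within 5000 bp of Pitx3 and Ddc, with means of 55.5 and 25.2 CPM, were steady but are not in it. STAT3 pathway genes had 2 of 57 (7.68), at the STAT inhibitor gene Pias1 and near Myc. Genes of O-GlcNAc cycling and the hexosamine pathway had 1 of 17 (3.59), at Pgm3. The first 2 lists stayed below under all 4 scalings, and the O-GlcNAc list was above under the other 3. Synaptic transmission genes had 26 of 239 (23.9), led by Dlg4, a postsynaptic scaffold gene, at 52.9 CPM. The 33 genes often used as references for normalization had only 7 of 62 regions steady (13.3), at Cyc1, Polr2a, Ppib, Rab7, Sdha, Tfrc and Tubb5, and stayed below under all 4 scalings, with 0 under DESeq2 size factors. Astrocyte markers had 2 of 20 (2.33), with 0 under the other 3 scalings. Oligodendrocyte markers had 2 of 17 (1.64), with 3 under TMM (1.39) and 1 under library totals (1.03). Each of these lists is small and its regions share genes, so the counts describe these libraries and were not tested.

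**Figure D4:**
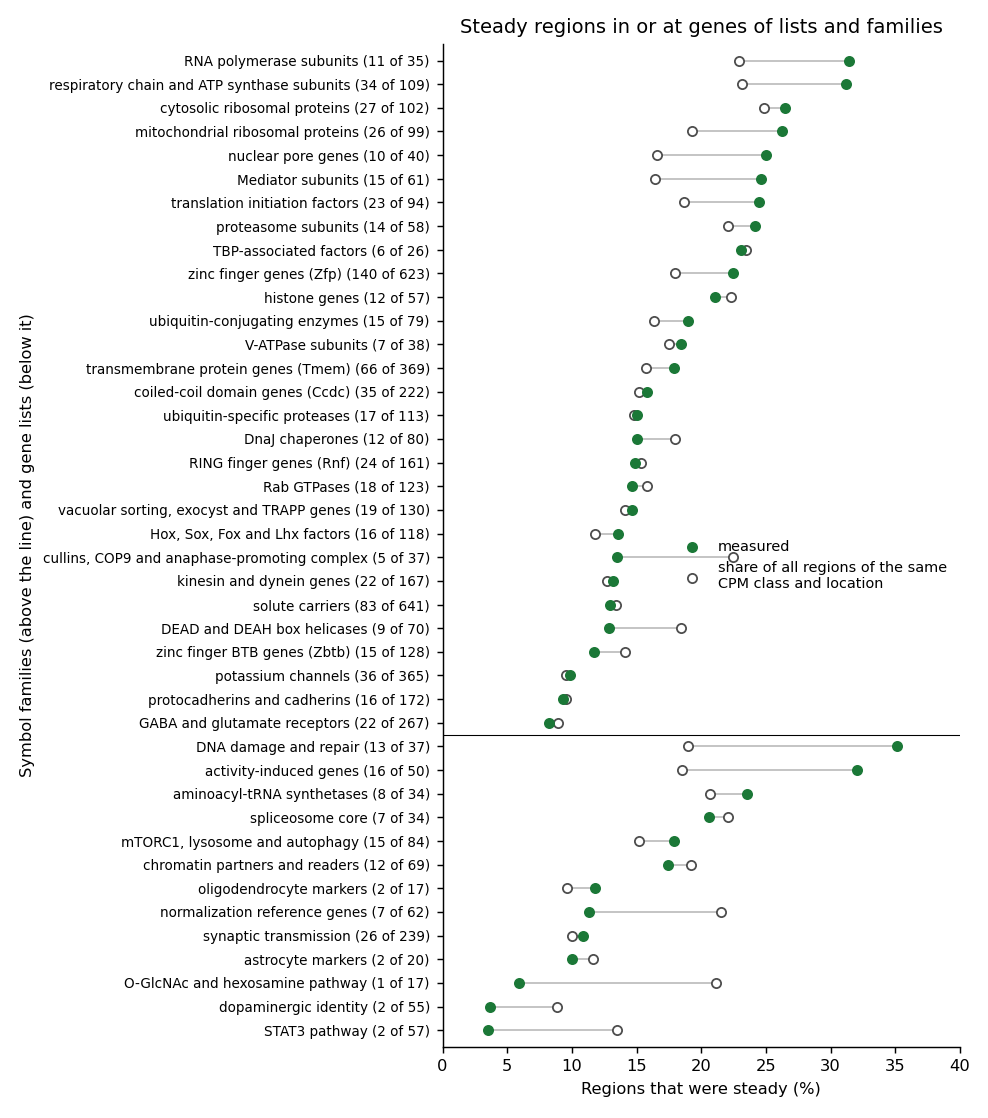
Share of regions that were steady (x axis, %, from 0) for each symbol family and each gene list with 15 or more regions, as measured (filled) and as the share of all regions of the same CPM class and location (open). DNA repair and activity-induced genes lie right of their open points with 13 of 37 and 16 of 50 regions, and normalization reference genes lie left with 7 of 62.

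The plot of lists shows most families near their open points, with solute carriers (83 of 641, standardised count 86.0) and potassium channels (36 of 365, 34.8) as large examples. Families far to the left included the cullin, COP9 and anaphase-promoting complex genes, with 5 of 37 (8.31), and DEAD and DEAH box helicases, with 9 of 70 (12.9). The helicase family was above its standardised count under library totals.

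Libraries took part in the spread of steady regions unequally. Knockdown replicate 1 was the highest library in 1273 steady regions, 23.3%, and control replicate 3 the lowest in 1156, 21.2%. At 40 CPM or more knockdown replicate 1 lay a median of 6.41% above the mean of the 6 libraries in steady regions and 14.9% above it in other regions. In that class the median of library over mean for control replicate 2 was 0.941 in steady regions and 0.882 in other regions. Reads in steady regions made up 13.9% to 14.2% of the reads in regions in knockdown libraries and 13.4% to 13.9% in control libraries.

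**Figure D5:**
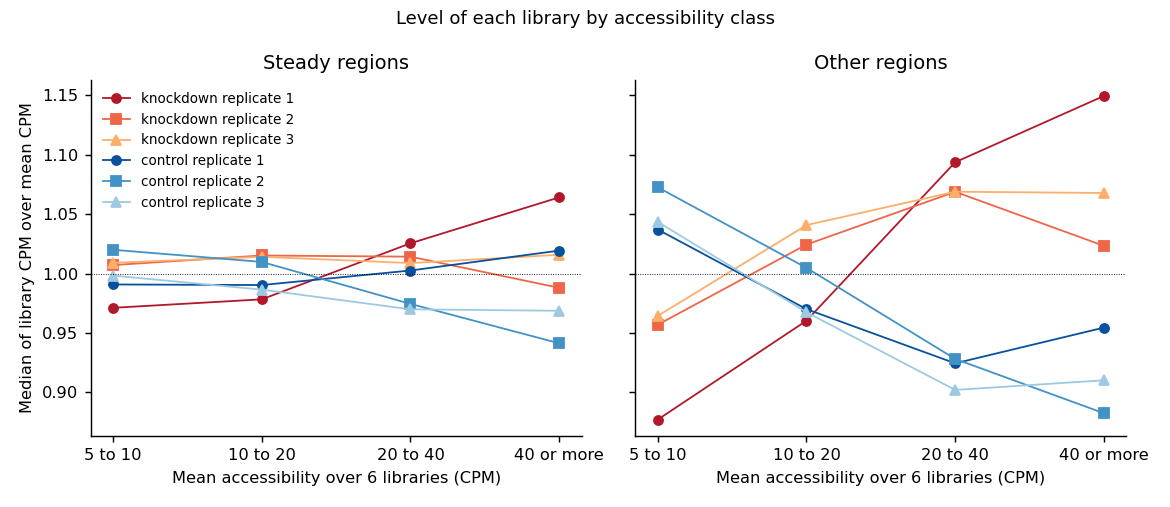
Median over regions of a library's CPM divided by the mean CPM of the 6 libraries (y axis), by mean level class (x axis), in steady regions (left) and other regions (right); red lines are knockdown and blue lines control. Knockdown replicate 1 lies 6.41% above the mean on the left and 14.9% above it on the right at 40 CPM or more.

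The lines of the plot by class cross between weak and strong regions in both sets, and those of steady regions stay nearer to 1 because the rule holds them there. Over steady regions the median log2 of knockdown over control was 0.03 (range -0.27 to 0.27), and the knockdown mean was the higher one in 3359 regions, 61.5%. That share was 45.3% at 5 to 10 CPM and 74.5% at 40 CPM or more. The 3 knockdown libraries lay all above the 3 control libraries in 832 steady regions and all below in 332, together 21.3%, where 42.7% of all regions in the series had no overlap. The edgeR quasi-likelihood test with TMM scaling and an adjusted p under 0.05 over 191693 regions called 440 steady regions higher in knockdown and 0 lower, 8.05%, where 28.1% of all tested regions were called, 15.4% higher and 12.7% lower. At an unadjusted p under 0.05 edgeR gave 1202 steady regions higher and 0 lower, and DESeq2 called 193 higher and 0 lower at its adjusted threshold. Nothing is read from these counts, since the rule limited the same contrast. They moved with the scaling, to 75 higher and 3 lower with reads in regions and to 0 higher and 67 lower with library totals. With 1 library left out they fell to 24 and 28 called in all without control replicate 2 or control replicate 3. They fell to 234 and 194 without knockdown replicate 1 or knockdown replicate 3, and rose to 547 and 521 without knockdown replicate 2 or control replicate 1. With knockdown replicate 1 placed by its title edgeR called 0 regions of the whole series, with 23047 at an unadjusted p under 0.05. Nup88, a nuclear pore gene, was among the regions without overlap, at 75.9, 75.05 and 78.2 CPM in knockdown and 69.05, 64.9 and 64.5 CPM in control.

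Libraries left out of the choice give a deviation that the rule did not fix. Regions chosen as steady in 5 libraries stayed within the 25% limit in 63.4% (knockdown replicate 1 left out) to 82.8% (control replicate 2 left out) once the sixth was added. Those that stayed numbered 5463 to 5468, nearly the steady set itself. That share therefore restates the member counts, with no comparison to regions not chosen. The library left out deviated from the mean of the other 5 by a median of 0.10 to 0.15 on the log2 scale in the chosen regions and 0.20 to 0.27 in the regions not chosen. Part of that follows the level, and within 20 to 40 CPM the values were 0.08 to 0.12 and 0.15 to 0.19.

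A choice within the 3 libraries of 1 genotype gives a spread in the other genotype that the ratio limit did not use. Both choices were read over the same regions, fewer than the 45916 above the minimum, so the regions compared did not depend on 1 genotype alone. For the choice within the controls 27587 were steady and 10834 not, and 5446 of the 5463 steady regions were among them. At 5 to 10 CPM only 9501 and 6924 were compared, though that class held 23059 other regions. Over all levels of this reduced set 59.8% of the regions steady within the controls were also steady within knockdown, against 43.9% of those not steady within the controls. Among regions chosen within knockdown, 77.6% were steady within the controls, against 64.6% of the rest. These gaps were smaller within a class. For the choice within the controls the shares were 37.5% and 34.5% at 5 to 10 CPM, 57.6% and 54.7% at 10 to 20, 83.6% and 80.1% at 20 to 40, and 87.0% and 78.2% at 40 CPM or more, where 142 regions were not steady within the controls. For the choice within knockdown they were 90.1% and 87.8% at 20 to 40 CPM and 95.1% and 91.2% at 40 CPM or more. For the choice within the controls the median size of the log2 difference between the genotypes was 0.24 in the chosen set and 0.27 in the rest over all levels, but 0.29 and 0.27 at 5 to 10 CPM and 0.19 and 0.16 at 40 CPM or more.

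The set of steady regions depended on the scaling. Of the same 45916 regions, 3671 were steady with TMM scaling and shared 2505 with the 5463, which is 45.9% of them. Library totals gave 3740, of which 1720 were shared, 31.5%. Only 535 regions, 9.79%, were steady under all 4 scalings, and 364 of those, 68.0%, lay at gene ends.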

How the data were processed

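The deposited tables hold 3 values per region, per the file headers: the read count, RPKM and a score. Counts are whole numbers that the authors left unnormalized, and they were taken unchanged. RPKM as deposited is the count over region width and over a single total for the library, which gave the library totals used as an alternative scaling. The deposited score, a rescaled count, was not used. SAMtools 1.9, BWA, MACS2, Picard, Trimmomatic, FastQC and mm10 appear in the submitters' processing notes without roles. How reads were counted, whether they were shifted for the transposase and how regions were made is not given in the sources used here.

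Levels are CPM of reads in regions. Counts were tested with edgeR 4.0.16 (R 4.3.3), using its quasi-likelihood test on the genotype alone, TMM scaling, its low-count filter and Benjamini-Hochberg adjustment; the script was tested on simulated data. DESeq2 1.42.0 was an alternative. Groups follow the genotype label, and replicate numbers are names in accession order.

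Gene bounds and promoter windows come from RefSeq for GRCm38.p6. Of 312 list entries 310 matched by symbol and 2 by synonym. Outer bounds do not tell exons, introns or UTRs apart, and a region may act on a gene other than its nearest. Sequence was read only in promoter windows.

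The members, lists, families and motifs were chosen with earlier results of these data known. Named regions are the 10 of highest mean, the 10 of lowest ratio, the 5 strongest inside and between genes, the 2 strongest per list or family and the 3 nearest to each limit on either side. Fosb, Jun and Egr2 are outside this rule and were chosen once their levels were known. Scaling alternatives for locations, lists and motifs were added after seeing the data. A few regions named by the rule above are not reported here.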

Additional observations from a re-analysis of the deposited data

How the results depend on the processing

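The number of steady regions, 5463, was 3606 with DESeq2 size factors and 8626 without knockdown replicate 1. It was 1136 with a limit of 15% above the lowest library and 21000 with 50%. It kept within 1.5 times with TMM (3669), library totals (3737) and minimums of 10 CPM (4619) or 2 CPM (6185). The same held with any other single library left out (6601 to 8043). The share of steady regions at gene ends, 62.64%, was 51.05% with TMM, 50.36% with DESeq2 size factors, 68.64% with library totals, 67.96% and 49.6% with limits of 15% and 50%, 69.76% and 56.44% with minimums of 10 and 2 CPM, 71.15% with gene ends of 3000 bp and 54.92% to 60.01% with 1 library left out. In the same order the share of other regions, 30.72%, was 33.13%, 33.01%, 31.47%, 33.67%, 21.81%, 50.09%, 15.69%, 41.18% and 28.78% to 30.68%, below the steady share in each. Regions called over all tested, 53850, were 35822 with DESeq2, 0 with grouping by title (edgeR; 23047 at an unadjusted p under 0.05) and 33776 to 54976 with 1 library left out (33776 without control replicate 2). The split into higher and lower calls was 29579 and 24271 with TMM, 22542 and 33447 with reads in regions, and 13135 and 47189 with library totals, as the median log2 fold change over the tested regions moved to -0.12 and -0.27. Of the shares per list and family under 3 scalings, 79 moved past their interval and 47 did not. The cause of these shifts was not tested. No paired analysis was possible because the labels give each library its own number. Depth limits weak regions most.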
